A study of Mus musculus with 12 samples.

Results

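Dbp, Tef, Hlf and Nfil3 are circadian output genes, and the Rev-Erbα binding sites assigned to them in mouse brown adipose tissue are described here. The members are all rows of the 2 deposited peak lists whose nearest gene, as the authors annotated it, is one of these 4 genes. They number 22 of 13410 rows: 18 of the 11227 peaks of the 4 °C list and 4 of the 2183 peaks of the 29 °C list. Hlf had 8 sites, Nfil3 8, Dbp 1 and Tef 1 at 4 °C, and the 4 sites at 29 °C were all of Nfil3.

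The data are chromatin immunoprecipitation with sequencing (ChIP-seq) of brown adipose tissue, the heat-producing fat, from C57BL/6 mice pulled down with magnetic beads against the HA epitope. HA-RevErba mice, which carry HA-tagged Rev-Erbα, gave 4 libraries after 1 week at 4 °C (chronic cold) and 4 after 1 week at 29 °C (thermoneutrality). Wild-type (WT) mice have no HA tag and gave 2 background libraries at each temperature under the same pull-down. The labels used here give no age, time of day or construction of the tagged allele, and whether a library came from 1 animal is not stated. The libraries held 27.0 to 37.3 M (mega) aligned reads. The binding values come from 4 pools, 1 per genotype and temperature, so no value has a replicate and no test between temperatures was made. The unit is FPKM, here reads per kb of a 200 bp peak window for each M reads pooled, a read density on DNA and not a level of expression. In bulk tissue, fewer cells with a bound site and less binding per cell cannot be told apart.

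DBP, TEF and HLF are the PAR bZIP factors, named for a proline- and acid-rich stretch beside the basic leucine zipper, and they activate genes through a DNA element called the D-box. NFIL3, also called E4BP4, is a basic leucine zipper repressor that binds the same element and opposes them. In the clock circuit, CLOCK and BMAL1 activate Dbp through E-boxes (CACGTG and variants), while Rev-Erbα, a nuclear receptor that recruits corepressors, binds elements built on AGGTCA and is known to repress Nfil3.

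The promoters of Dbp and Nfil3 are shown because both had a peak annotated as promoter. The sequences are the 250 bases before the start in RefSeq on build GRCm38.p6. The peaks are on mm9 and no coordinate was carried between the builds, so how far the starts used by the authors coincide with these was not tested. The 6 motifs below were searched on both strands from 250 bases before to 50 after each start. The nuclear receptor elements were AGGTCA, the longer TAGGTCA, which contains it and so counts for both, and the variant TGGGTCA. The E-box was CACGTG, and the D-boxes were TTATGTAA in the one form and TTACGTAA in the other. All 4 genes matched the RefSeq table, with 5 promoters in all since Tef has 2 starts. Capitals mark a match; the Nfil3 promoter carries the longer element on the opposite strand, so it reads TGACCTA here.
Nfil3, chr13:52981040-52981289, minus strand: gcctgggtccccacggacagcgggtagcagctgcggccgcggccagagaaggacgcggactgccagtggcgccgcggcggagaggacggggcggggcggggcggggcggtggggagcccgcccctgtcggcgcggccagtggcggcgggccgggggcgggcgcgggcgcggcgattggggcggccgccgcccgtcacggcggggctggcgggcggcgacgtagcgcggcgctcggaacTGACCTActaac
Dbp, chr7:45704997-45705246, plus strand: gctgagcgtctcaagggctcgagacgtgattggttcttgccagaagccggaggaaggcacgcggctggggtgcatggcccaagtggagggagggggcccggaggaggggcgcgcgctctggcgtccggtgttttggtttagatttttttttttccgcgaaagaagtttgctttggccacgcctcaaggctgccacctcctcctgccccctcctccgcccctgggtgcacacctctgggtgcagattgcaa

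The Nfil3 match lies at bases -12 to -6 from the RefSeq start. The 4 °C peak window at the Nfil3 promoter ran from -48 to 152 bp relative to the start used by the authors, a range that spans those positions if the starts coincide. Of 32851 promoters of the same length in the table, 2.61% hold TAGGTCA and 16.3% hold AGGTCA. The Dbp window ran from -412 to -212 bp, so most of it lies upstream of the printed stretch, which held none of the 6 motifs. Nor did the Hlf promoter, where no peak was listed. Both Tef promoters held an E-box, which 7.15% of promoters hold, and they are shown as 30 bases each because no Tef peak lay near either one.
Tef, upstream start, chr15:81802535-81802564, plus strand: tgctgtggctcCACGTGctgcagctggcac
Tef, downstream start, chr15:81811265-81811294, plus strand: acctggcccagCACGTGtctacatcgtttg

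None of the 5 promoters held TGGGTCA (3.98% of promoters), TTATGTAA (0.938%) or TTACGTAA (0.119%). A match is a string of letters and does not show a bound site.

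All 4 genes had a site in the 4 °C list, where 21.8% of 21031 protein-coding genes had one. At 29 °C 1 of the 4 had a site, against 6.30% of genes. Hlf and Nfil3 were among the genes with many sites: of the 5451 genes with a 4 °C peak, 2.13% had 8 or more, and 54.6% had 1. At 29 °C, 2.03% of the 1629 genes with a peak had 4 or more, as Nfil3 did. The 8 Hlf sites spanned 87.7 kb and the 8 Nfil3 sites 151 kb. Most sites were distal: 13 of 18 lay beyond 10 kb of the transcription start site (TSS), against 73.9% of the 4 °C list. The promoter sites were 2 of 18, against 3.82% of the list. By annotation, 11 sites were intronic and 5 intergenic. Assignment to the nearest TSS does not show which gene a distal site acts on.

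Each HA-RevErbα value was higher at 4 °C than at 29 °C at all 18 sites. The ratio of 4 °C to 29 °C, per read of the pool, ran from 1.57 to 11.8 with a median of 2.89. It was at least 2 at 15 of the 18 sites, against 83.4% of all windows of the 4 °C list, and at most 0.5 at none, against 0.0802%. Scaling the pools to equal WT reads over the windows in both lists divides every ratio by 1.44 and left 9 of the 18 at 2 or more, against 55.4% of the list. The smallest ratios were then 1.09 and 1.11 at the Nfil3 sites at 6.13 and -87 kb and 1.13 at the Hlf site at 35.5 kb. Before that scaling, the exact 95% counting interval of the ratio lay above 1 at all 18, against 95.4% of the list. These shares are near the background, so the higher signal in the cold does not set the 4 genes apart from the rest of the list. All 18 windows were chosen on 4 °C signal, which favours high ratios. The intervals cover counting error only and leave out differences between animals. Divided by 1.44 as well, the intervals at the Tef site, the Hlf site at 35.5 kb and the Nfil3 sites at 6.13 and -87 kb include 1. Before that scaling their lower bounds were 1.38, 1.19, 1.22 and 1.18. Summed over the 18 windows, the WT pools held 139 reads in the cold and 136 at 29 °C, a ratio of 0.945 per read of the pool (0.741 to 1.21). The WT ratio was 1.41 (0.765 to 2.66, from 29 and 19 reads) over the 4 of these windows that were in both lists.

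**Figure D1:**
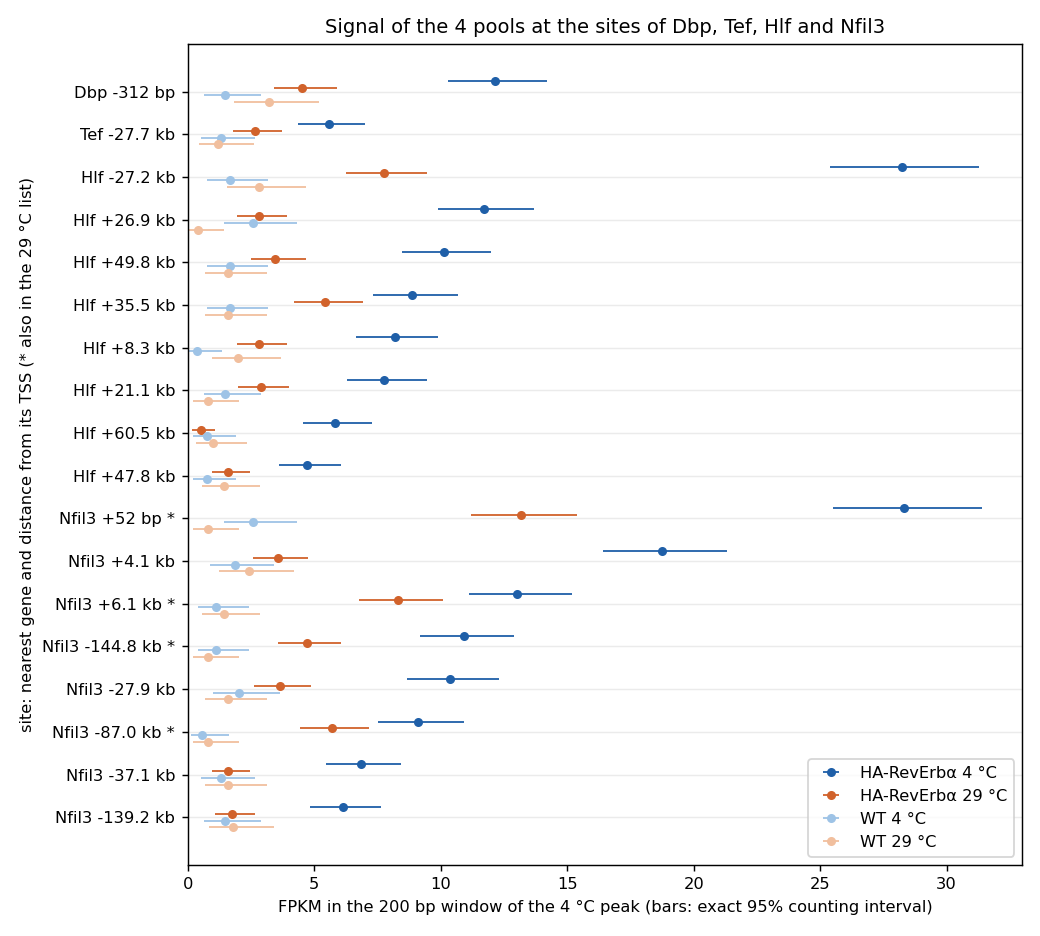
FPKM of the 4 pools (points) with exact 95% counting intervals (bars) in the window of each of the 18 sites of the 4 °C list; each row is 1 site, named by gene and distance from the TSS, and asterisks mark the 4 sites also listed at 29 °C. The HA-RevErbα 4 °C value is the highest of the 4 pools in every row, and reaches 28.32 FPKM at the Nfil3 promoter and 28.24 at the Hlf site at -27.2 kb.

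At its promoter the repressor gene Nfil3 had the highest HA-RevErbα FPKM of the group, 28.32 at 4 °C against 28.24 at the Hlf site at -27.2 kb. Nfil3 was the only one of the 4 genes with peaks listed at both temperatures. The promoter site (chr13:53076256-53076456 on mm9, centre 52 bp after the TSS) had 28.32 FPKM in the cold and 13.17 at 29 °C in the HA-RevErbα pools, from 361 and 160 reads. The WT pools had 2.59 and 0.81 FPKM there, from 14 and 4 reads. The 4 °C to 29 °C ratio was 2.15 (1.78 to 2.61). HA-RevErbα exceeded WT 11-fold at 4 °C (6.45 to 20.3) and 16.5-fold at 29 °C (6.32 to 61.3). WT reads also differed here, with a 4 °C to 29 °C ratio of 3.24 (1.02 to 13.5), so the fold over WT was not lower at 29 °C although the HA-RevErbα density was. The peak ranked 150 by score in the 4 °C list and 226 in the 29 °C list.

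Both other sites close to the Nfil3 start lay in its single intron, and they differed in how far they changed. The site at 4.14 kb (chr13:53072163-53072363) had 18.75 FPKM in the cold and 3.55 at 29 °C, against 1.85 and 2.40 in WT. Its ratio was 5.30 (3.82 to 7.51), and its 29 °C signal was 1.48 times WT with an interval that included 1 (0.766 to 3.08). With WT subtracted the ratio was 14.7, which rests on a 29 °C signal not above WT beyond counting error. The site at 6.13 kb (chr13:53070173-53070373), 1.99 kb away, had 13.03 FPKM in the cold and 8.32 at 29 °C, against 1.12 and 1.41 in WT. Its ratio was 1.57 (1.22 to 2.03), an interval that does not overlap that of the neighbouring site. At 4 °C the site at 4.14 kb was the higher of the pair, and at 29 °C the site at 6.13 kb was. Among the 18 sites the first went from rank 3 to rank 9 by HA-RevErbα FPKM, and the other from rank 4 to rank 2.

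The 29 °C list placed the peak at 6.13 kb 90 bp further into the gene than the 4 °C list did, with 110 bp of overlap. In that 29 °C window (chr13:53070083-53070283) the pools had 10.91 FPKM in the cold and 9.30 at 29 °C, against 1.12 and 1.21 in WT. The ratio was then 1.17 (0.908 to 1.52), so in this window the 2 temperatures could not be told apart beyond counting error, and the scaling to WT reads over windows in both lists turned it to 0.814. At the 3 other shared sites the windows were shifted by at most 5 bp, and the ratios were 2.14, 2.31 and 1.61 in the 29 °C windows.

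Upstream of Nfil3 there were 5 sites, 2 of them in both lists. The intergenic site at -87 kb (chr13:53163336-53163536) had 9.11 FPKM in the cold and 5.68 at 29 °C, against 0.56 and 0.81 in WT, a ratio of 1.60 (1.18 to 2.19). The site at -145 kb (chr13:53221122-53221322) lies in intron 4 of 8 of Ror2, a Wnt5a receptor gene, and had 10.91 and 4.70 FPKM, against 1.12 and 0.81. Its ratio was 2.33 (1.70 to 3.22). At 29 °C these sites had 7.12 (2.66 to 26.9) and 5.88 times WT (2.18 to 22.3), each resting on 4 WT reads.

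The 3 other upstream sites were listed at 4 °C only, and at 2 of them the 29 °C signal was no higher than WT. At -27.9 kb the HA-RevErbα pools had 10.36 and 3.63 FPKM, against 2.04 and 1.60 in WT, a ratio of 2.86 (2.02 to 4.12), and the 29 °C signal was 2.27 times WT (1.06 to 5.58). At -37.1 kb they had 6.83 and 1.57 FPKM, against 1.3 and 1.60. At -139 kb, in intron 5 of 8 of Ror2, they had 6.13 and 1.74 FPKM, against 1.48 and 1.80. At the last 2 sites the 29 °C signal was 0.98 and 0.963 times WT, so their ratios of 4.37 (2.64 to 7.60) and 3.54 (2.16 to 6.04) rest on 29 °C values at background. A further peak in the same stretch was assigned to Ror2 itself, 16.6 kb from the Nfil3 site at -145 kb. It was listed at 4 °C only, with 14.75 and 5.52 FPKM against 2.96 and 2.20 in WT, a ratio of 2.68 (2.01 to 3.59).

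**Figure D2:**
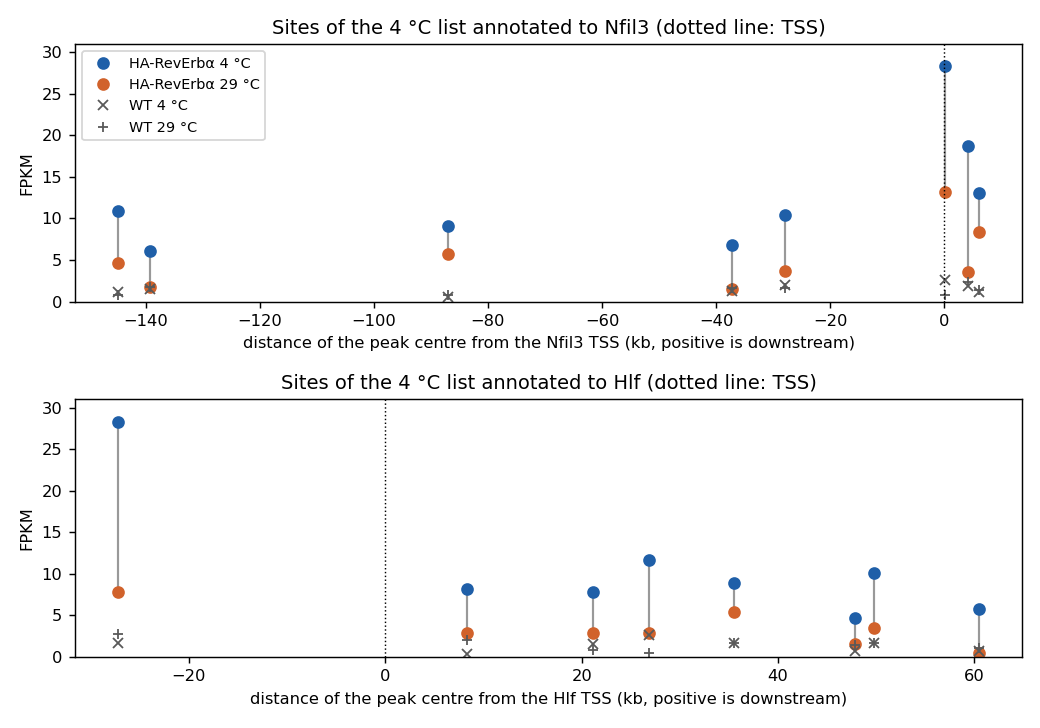
FPKM of the 4 pools (vertical axis) against the distance of the peak centre from the TSS in kb (horizontal axis) for the 8 Nfil3 sites and the 8 Hlf sites of the 4 °C list; grey lines join the HA-RevErbα values at 4 °C and 29 °C, crosses and plus signs are the WT pools. The Nfil3 sites cluster at the start and upstream to -145 kb, while Hlf has its highest site at -27.2 kb and the rest downstream of its start.

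Hlf, an activator of D-box genes, had no promoter peak and no site in the 29 °C list. Its highest site lay at -27.2 kb (chr11:90279341-90279541, intergenic) and had 28.24 FPKM in the cold and 7.74 at 29 °C, from 360 and 94 reads, against 1.67 and 2.80 in WT. At 4 °C it could not be told apart from the Nfil3 promoter (intervals 25.4 to 31.3 and 25.5 to 31.4 FPKM). At 29 °C the Hlf value was lower than that of the Nfil3 promoter (6.25 to 9.46 against 11.2 to 15.4 FPKM). The 4 °C to 29 °C ratio was 3.65 (2.90 to 4.63), and its interval lay above that of the Nfil3 promoter. The Hlf site was 17 times WT at 4 °C (8.87 to 37.5). At 29 °C it exceeded WT by 4.94 FPKM but was 2.77 times WT (1.57 to 5.26). Listed peaks exceed WT by 3 FPKM or more and by 4-fold or more, to rounding, so this site met the difference and not the fold.

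The 7 other Hlf sites lay downstream of the start, 6 of them in introns of the gene. In intron 2 of 3 the site at 26.9 kb had 11.69 FPKM in the cold and 2.81 at 29 °C, against 2.59 and 0.41 in WT, a ratio of 4.18 (2.86 to 6.26). The site at 35.5 kb had 8.87 and 5.44 FPKM, against 1.67 and 1.60, and the smallest ratio of the gene, 1.63 (1.19 to 2.25). The site at 8.31 kb had 8.17 and 2.81 FPKM, against 0.38 and 2.0. These sites differed in their WT values as well as in their own: the WT pools held 14 and 2 reads at 26.9 kb, 9 and 8 at 35.5 kb, and 2 and 10 at 8.31 kb. The folds over WT at 26.9 kb were 4.53 at 4 °C (2.62 to 8.48) and 7.02 at 29 °C (1.80 to 60.3), or 3.94 and 3.64 with 0.5 FPKM added to each pool, so their order is not settled. At 8.31 kb they were 22.1 (5.97 to 185) and 1.40 (0.678 to 3.18), or 9.85 and 1.32 with 0.5 FPKM added. The 4 °C to 29 °C ratio at 8.31 kb was 2.92 (1.96 to 4.43), and 9.62 with WT subtracted. The latter rests on a 29 °C signal not above WT beyond counting error.

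The site at 21.1 kb, also in intron 2, had 7.77 and 2.89 FPKM, against 1.48 and 0.81 in WT, a ratio of 2.70 (1.82 to 4.09). In intron 3 of 3 the site at 49.8 kb had 10.13 and 3.46 FPKM, against 1.67 and 1.60, and that at 47.8 kb, 1.96 kb away, had 4.71 and 1.57, against 0.75 and 1.41. Their ratios were 2.93 (2.05 to 4.25) and 3.01 (1.77 to 5.34). With WT subtracted they were 4.55 and 24.7, the latter from a 29 °C signal at 47.8 kb of 1.12 times WT (0.451 to 3.15). The most distal Hlf site, intergenic at 60.5 kb, had 5.81 FPKM in the cold and 0.50 at 29 °C, against 0.75 and 1.01 in WT. Its ratio of 11.8 (5.15 to 33.1) is the largest of the group and rests on 6 reads at 29 °C, where the signal was 0.495 times WT (0.126 to 2.05).

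The other 2 PAR bZIP genes had 1 site each, both listed at 4 °C only. The Dbp site (chr7:52960205-52960405) is annotated as promoter, with its centre at -312 bp from the TSS. It had 12.16 FPKM in the cold and 4.53 at 29 °C in the HA-RevErbα pools, from 155 and 55 reads, and 1.48 and 3.20 FPKM in the WT pools, from 8 and 16 reads. The HA-RevErbα ratio was 2.69 (1.96 to 3.72), and 8.03 with WT subtracted. The WT value was the highest 29 °C WT value of the 18 sites, and its own 4 °C to 29 °C ratio was 0.462 with an interval that included 1 (0.171 to 1.15). At 29 °C the Dbp promoter was 1.42 times WT (0.801 to 2.65), while at 4 °C it was 8.24 times WT (4.08 to 19.4). A 29 °C signal over WT at Dbp was thus not detectable at this depth.

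Near Dbp, 24.7 kb from its promoter site, the 29 °C list held a peak in an intron that was assigned to Ntn5. It had 10.36 FPKM in the cold and 4.86 at 29 °C, against 3.70 and 1.21 in WT. The HA-RevErbα value was higher in the cold there (ratio 2.13, 1.56 to 2.95), but the fold over WT was 2.81 at 4 °C and 4.06 at 29 °C, and the site is absent from the 4 °C list. These folds have no counting interval here, so their order is not settled. No peak of another gene lay within 50 kb of a Hlf or Tef site in either list.

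The Tef site was among the weakest of the group and does not lie in Tef. It is in intron 7 of 22 of Zc3h7b, a zinc finger gene next to Tef, at -27.7 kb from the Tef TSS (chr15:81605283-81605483). The pools had 5.58 FPKM in the cold and 2.64 at 29 °C, against 1.3 and 1.21 in WT. The ratio was 2.12 (1.38 to 3.32). Its signal was 4.32 times WT at 4 °C (1.99 to 11.1), close to the limit of 4 for listing, and 2.20 times WT at 29 °C (0.908 to 6.44).

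**Figure D3:**
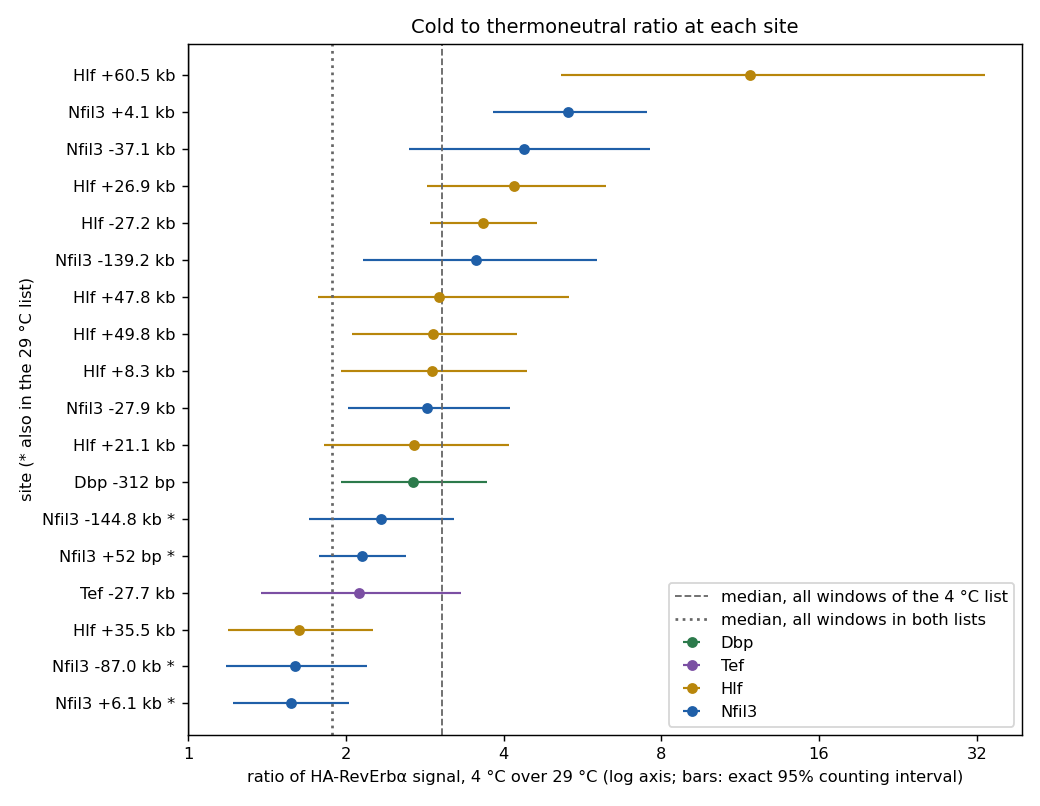
Ratio of HA-RevErbα signal at 4 °C to that at 29 °C (log axis) with exact 95% counting intervals (bars) for the 18 sites, sorted, with the gene given by colour; the dashed and dotted lines are the medians of all windows of the 4 °C list (3.05) and of all windows in both lists (1.88). Per read of the pool, all 18 intervals lie above 1, and the interval of the Nfil3 site at 4.14 kb does not overlap that of the site at 6.13 kb.

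The genes can be set in order by the level of their highest site. At 4 °C the order was Nfil3 (28.32 FPKM, promoter), Hlf (28.24), Dbp (12.16, interval 10.3 to 14.2) and Tef (5.58, 4.35 to 7.02), where Nfil3 and Hlf do not differ beyond counting error and each later step does. At 29 °C the order in the same windows was Nfil3 (13.17), Hlf (7.74), Dbp (4.53, 3.41 to 5.89) and Tef (2.64, 1.80 to 3.72), and the last pair overlapped. WT is not subtracted in this order. Less WT, the 4 °C values were 26.6 FPKM at the Hlf site and 25.7 at the Nfil3 promoter, which turns the order of those sites. At 29 °C the fold over WT had an interval that included 1 at Dbp (0.801 to 2.65) and at Tef (0.908 to 6.44). Less WT, the values were 1.33 FPKM at Dbp and 1.43 at Tef, so the order of that pair is not settled. Summed over all sites of a gene, HA-RevErbα reads went from 330 at 29 °C to 1088 at 4 °C at Hlf, a ratio of 3.14 (2.78 to 3.57). At Nfil3 they went from 514 to 1318, a ratio of 2.44 (2.21 to 2.71), which lies below the interval of Hlf. The 8 Hlf sites were all listed at 4 °C only, and over the 4 Nfil3 sites listed so, a split chosen after seeing the data, the ratio was 4.02 (3.31 to 4.92, from 536 and 127 reads). That is above the Hlf value with overlapping intervals, so the order of the genes depends on which sites are summed. The WT sums were 58 and 59 reads at Hlf and 56 and 65 at Nfil3, at 29 °C and 4 °C.

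The 4 sites in both lists changed less than most of the 14 listed at 4 °C only. Their ratios ran from 1.57 to 2.33, with a median of 1.88, which is also the median of all 1670 windows in both lists. The 14 others ran from 1.63 to 11.8 with a median of 2.97, against 3.28 for all 9557 windows listed at 4 °C only. Listing at 29 °C required signal at 29 °C, so this gap is in part set by the lists. The share of member sites in both lists was 4 of 18, against 14.9% of the 4 °C list. All 4 member peaks of the 29 °C list overlapped a 4 °C peak, against 76.5% of that list, and in its own windows 2 of these 4 had a ratio of at least 2, against 31.5%.

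Absence from the 29 °C list did not always mean a lack of signal there. Of the 14 sites listed at 4 °C only, 6 exceeded WT at 29 °C with a counting interval above 1, against 31.3% of all such windows, and 5 of these 6 were Hlf sites. The lower bound at the Hlf site at 49.8 kb was 1.0 within rounding. All 14 missed at least 1 of the limits of the lists at 29 °C, as did 99.0% of such windows. The Hlf sites at -27.2 and 35.5 kb met the difference limit, the Hlf site at 26.9 kb met the fold limit, and 11 met neither. At 3 sites, the Hlf site at 60.5 kb and the Nfil3 sites at -37.1 and -139 kb, the HA-RevErbα value at 29 °C was no higher than WT.

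**Figure D4:**
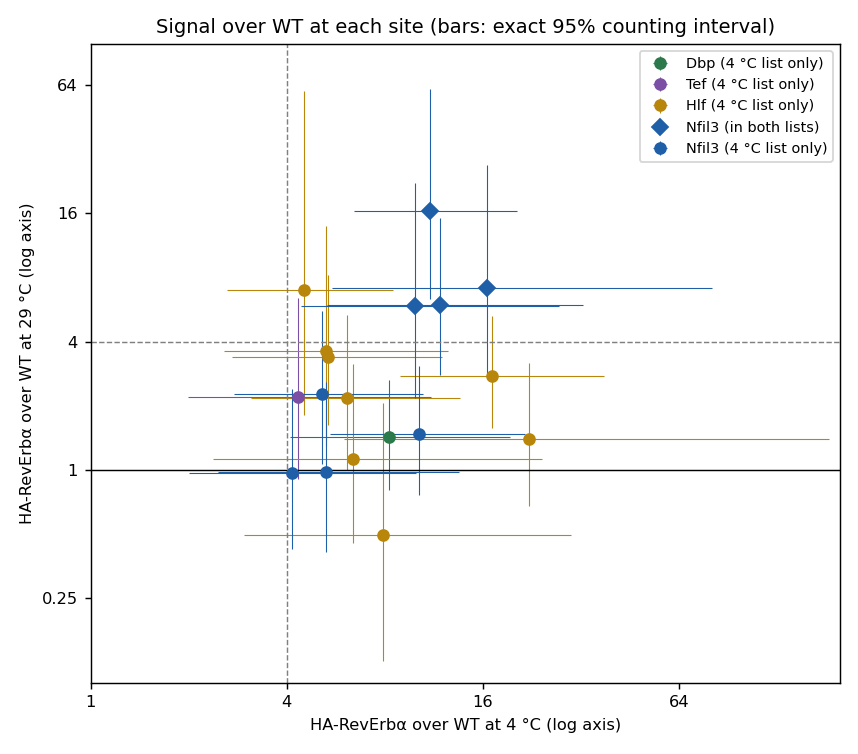
HA-RevErbα over WT at 29 °C (vertical, log axis) against the same at 4 °C (horizontal, log axis) for the 18 sites, with exact 95% counting intervals as bars, gene by colour and diamonds for sites in both lists; dashed lines mark 4 times WT and the solid line equality at 29 °C. The 4 diamonds, all Nfil3, lie between 5.88 and 16.5 times WT at 29 °C, while the Dbp site lies at 1.42.

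The sites with the most similar values over the 4 pools were found by the Euclidean distance of log2(FPKM + 0.5), as a description over 4 values per site. Nearest to the Nfil3 promoter were sites assigned to Accsl (distance 0.328), Elp4 (0.360) and Dach1 (0.376). In the genome these lay -37.4, 49.6 and 102 kb from the TSS of those genes. Nearest to the Hlf site at -27.2 kb were sites assigned to Gosr1 (0.307), Ahcyl2 (0.318) and Ackr3 (0.384), at -31.9, -39 and 30.8 kb. The Dbp promoter was most like sites assigned to 4930511E03Rik (0.216), Elk3 (0.253) and Xrcc3 (0.256), at -15.9, 13.2 and 13.2 kb. The Tef site was most like sites assigned to Dcun1d3 (0.0410), Cebpa (0.0838) and Ccdc80 (0.0925), at 19.5, 6.83 and -0.702 kb.

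Genes around these factors often had cold sites as well. Of 20 other clock genes, 13 had a peak at 4 °C and 4 at 29 °C. The 4 genes with the highest scores, Npas2, Cry1, Nr1d1 and Arntl, were those with peaks in both lists. At the highest-scoring site of each of the 13 genes the ratio had a median of 3.0 and a range of 1.36 to 7.01, and it was at least 2 at 10 of them. The whole 4 °C list had a median of 3.05, with 83.4% of its windows at 2 or more, so these genes lie near the background. Per1, Per2 and Per3 are both among the clock genes and in the next list, and the sites of Per2 and Per3 count in both. Of 23 genes known to be controlled by PAR bZIP factors or by NFIL3, mostly in liver, 14 had a 4 °C peak and 5 a 29 °C peak. Their median ratio was 3.43, and 12 of the 14 had a ratio of at least 2, also near those values of the whole list.

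By score these were led by Il12b, which encodes a subunit of interleukin-12, Lpl (lipoprotein lipase), Acot1 (an acyl-CoA thioesterase) and Por, the electron donor of cytochrome P450 enzymes. Il12b had 73.33 FPKM in the cold and 66.54 at 29 °C at a site -227 kb from its TSS, a ratio of 1.10 (1.0 to 1.21). With WT reads over windows in both lists set equal, the ratio fell below 1 at Il12b (0.76) and at Npas2 (0.94). Acot1 had 22.75 and 9.88 FPKM, a ratio of 2.30 (1.86 to 2.87), and Por had 16.71 and 3.63, a ratio of 4.62 (3.32 to 6.54). Among 9 related basic leucine zipper genes of the C/EBP and ATF families, 7 had a 4 °C peak and 2, Atf5 and Atf3, a 29 °C peak. At their highest-scoring sites the median ratio was 3.58, and 6 of the 7 had a ratio of at least 2. The whole 4 °C list had 3.05 and 83.4%, so these genes also lie near the background. Atf5 had 20.32 and 13.83 FPKM, a ratio of 1.47 (1.21 to 1.80), the smallest of the 7. With WT reads over windows in both lists set equal, the Atf5 ratio was 1.02. Cebpb, a regulator of fat-cell differentiation, had 13.50 and 2.07 FPKM, a ratio of 6.56 (4.30 to 10.4). At Cebpg, with the same 13.50 FPKM at 4 °C, the ratio was 3.57 (2.56 to 5.05), and at Atf3 it was 3.62 (2.38 to 5.65). These counts stand beside the 21.8% and 6.30% of all protein-coding genes, and the lists were not chosen independently of earlier results.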

How the data were processed

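ChIP-seq libraries of brown adipose tissue were grouped by their titles. Per the labels' processing notes by the submitters, Bowtie2 2.1.0, HOMER 4.10 and build mm9 were used, without stated roles; the sources name no peak-calling settings or duplicate handling. Deposited library files are aligner logs. Peaks were listed once per temperature for pooled libraries, per the file headers. The FPKM deposited by the authors are per 200 bp window. The peak score deposited by the authors matched HA-RevErbα reads per 10 M pooled reads.

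FPKM less 0.01 were whole multiples of the value of 1 read (tolerance 0.01 FPKM, 100% of values), giving pools of 63.8 M (HA-RevErbα 4 °C), 60.8 M (HA-RevErbα 29 °C), 27.1 M (WT 4 °C) and 25.1 M reads (WT 29 °C), 39.5% to 49.8% of the aligned reads. There 3 reads correspond to 0.235, 0.247, 0.553 and 0.598 FPKM. Ratios have exact Clopper-Pearson and FPKM exact Poisson intervals at the 95% level, which reflect counting alone, and reads lacking molecular identifiers may be copies of 1 molecule; the code was tested on simulated data. Shared sites overlap by at least 1 bp and are read in the 4 °C window. Coordinates are as in the files, which do not say whether starts count from 0 or 1. Named genes are all member sites, the 3 most similar sites per gene, other peaks within 50 kb and up to 4 genes per list by score. Members and lists were chosen with earlier results of these data known. Python 3.11.15, numpy 2.4.6, pandas 2.3.3 and scipy 1.17.1 were used.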

Additional observations from a re-analysis of the deposited data

How the results depend on the processing

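All 18 ratios of 4 °C to 29 °C stayed above 1 when the pools were scaled by aligned reads (divided by 0.986), by WT reads over all 4 °C windows (1.02) or by WT reads over shared windows (1.44, or 0.53 on the log2 scale); the last left 10 of the 18 outside their counting interval. It gave 1.86 at Dbp, 2.53 at the Hlf site at -27.2 kb and 1.49 at the Nfil3 promoter. Sites with a ratio of at least 2 were then 9 in place of 15, against 55.4% of the list. Per read of the pool, a fold of 3 left 7 of the 18, where the median of all windows of the 4 °C list was 3.05. With WT subtracted, Dbp rose to 8.03, over a 29 °C signal not above WT beyond counting error, and the Hlf site to 5.38. No ratio could be formed at the 3 sites not above WT at 29 °C. Of the other 15, 6 moved out of their interval. Stricter limits (5 FPKM over WT and 6 times WT) left 10 of 18 sites at 4 °C and 2 of 4 at 29 °C. The share of the whole lists that meets them is not given here, so these counts have no background. Sites within 10 kb of the TSS numbered 5 and 2. Sites in both lists stayed 4 with an overlap of 100 bp or with centres within 1 kb. With 0.5 FPKM added to both, all 36 folds over WT stayed in their intervals, but their order between temperatures turned at the Hlf site at 26.9 kb (3.94 and 3.64). Of the 12 most similar sites, 10 were kept at log2(FPKM + 0.1). No paired analysis was possible because the deposited values are pools, and leaving out a library was not possible for the same reason. WT windows held 2 to 16 reads, which limits every fold over WT.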
